A study of Peromyscus maniculatus and Peromyscus polionotus and Peromyscus maniculatus x Peromyscus polionotus with 18 samples.

Results

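In the brain of 2 deer mouse species, 61 genes differed in level between the species and differed the same way between the parental alleles inside F1 hybrids. *Peromyscus polionotus* is known for long burrows that end in an escape tunnel, whereas burrows of *P. maniculatus* are short and simple. Of the 61 genes, 43 were higher and 18 lower in *P. polionotus*. They were picked from 9742 genes present in both deposited tables with, on average, at least 100 allele-assigned counts per hybrid animal. A gene was taken when the log2 ratio of mean levels, polionotus over maniculatus with 1 TPM added to each, was at least 1 in size, and when the polionotus share of its allele-assigned counts lay above 66.7% (for genes higher in *P. polionotus*) or below 33.3% (for genes lower) in all 6 hybrids. TPM is a transcript level scaled to transcript length and library total. A share of 50% means that both alleles gave equally many counts.

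Whole brains came from male *P. maniculatus*, male *P. polionotus* and their male F1 hybrids, each about 50 to 80 days old and killed directly after a test trial in a sand-filled enclosure, called burrowing, or after a control trial. Each of these 6 groups held 3 libraries, and every animal had completed 2 pretest trials. The labels name *P. maniculatus* first for the hybrid cross, and which species was the mother is not stated. The labels and column headers code *P. maniculatus* as BW and *P. polionotus* as PO, without saying what the codes stand for. They give no family or litter. P-values therefore measure only the spread between libraries of the same group, fitted over the 12 parental or the 6 hybrid libraries.

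An F1 hybrid carries 1 chromosome set from each species in the same cells. A difference between species can come from sequence that acts on the gene next to it (cis) or from factors such as transcription regulators that act on both copies (trans). Both alleles of a hybrid share the trans factors of their cell, so an allele difference that matches the species difference marks a candidate for a cis effect. The same reading can arise when reads of 1 allele are aligned or assigned more easily than those of the other, and how reads were given to an allele is not stated in the sources used here.

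A hybrid library held between 11415175 and 53906964 allele-assigned counts, and the polionotus allele held 52.6% to 53.1% of them. Parental libraries kept no depth, since TPM are scaled. Markers of neurons, astrocytes and oligodendrocytes were abundant in every parental library, with summed levels of at least 6123, 5150 and 2764 TPM. Those of blood and pituitary stayed at or below 41.9 and 13.9 TPM. Endothelial and pericyte markers summed to 164 to 254 TPM in *P. polionotus* and 255 to 318 TPM in *P. maniculatus*. In the same order, choroid plexus markers summed to 1401 to 2167 and 1216 to 1547 TPM. Those of meninges and fibroblasts summed to 1455 to 1958 and 1871 to 2926 TPM, and those of hindbrain and spinal cord to 14.0 to 70.9 and 46.0 to 68.0 TPM. The part of tissue content in the species differences was not tested. On the second principal component of the parental libraries, replicate 3 of the maniculatus control trial scored -20.5, replicate 3 of the polionotus burrowing trial -15.5 and replicate 2 of the polionotus control trial -12.6, against -1.61 to 13.2 in the others. Without these 3 libraries together, an alternative chosen after seeing the data, 42 genes were higher and 19 lower; Catsper2 and Vwa2 dropped out of the 61.

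Members made up 0.441% of the 9742 genes in the higher and 0.185% in the lower direction. Shares above 66.7% in all 6 animals were found in 480 genes (4.93%) and shares below 33.3% in 181 (1.86%). The species fold alone was passed by 103 genes higher in *P. polionotus* (1.06% of all) and by 55 lower (0.565%). Of the 103, 43 had the share on the same side in every animal, 16 lay between the share thresholds in every animal and 44 were mixed. For the 55 lower genes these numbers were 18, 8 and 29. None of the 158 had its share past the threshold on the opposite side in all 6 animals. Because species level and allele share chose the genes, both are given below as a description without a test.

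**Figure D1:**
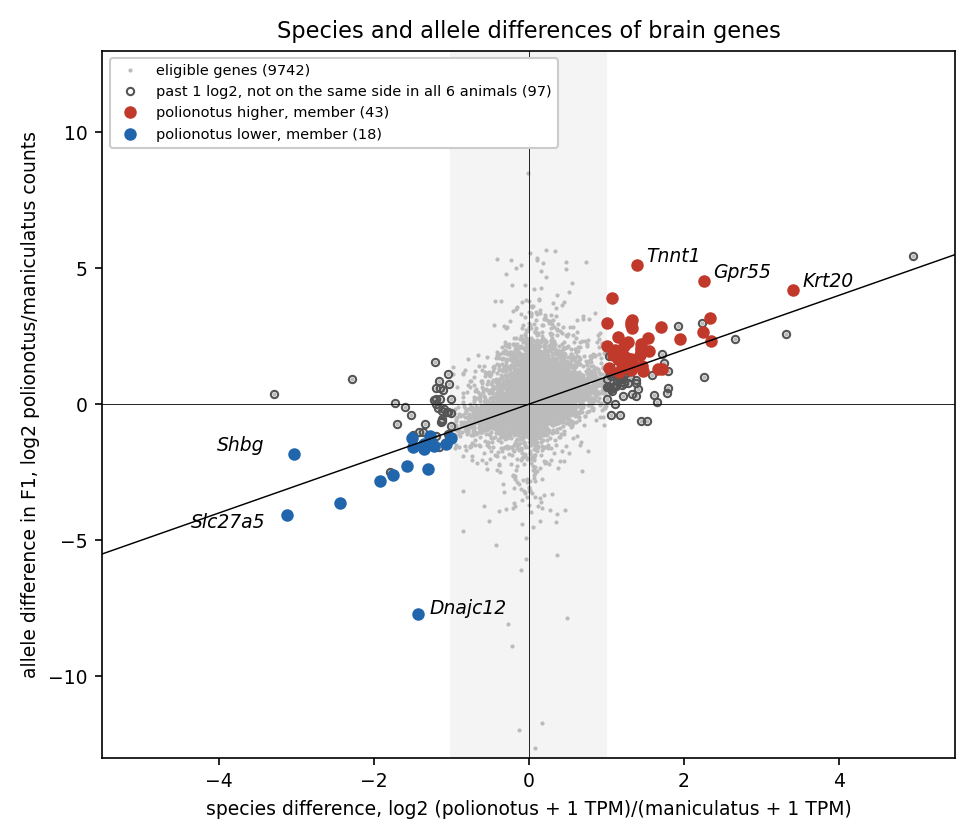
Species difference (x axis, log2 of polionotus over maniculatus TPM, 1 TPM added to each) against allele difference in the F1 hybrids (y axis, log2 of polionotus over maniculatus counts summed over 6 animals) for 9742 genes. Red (43 genes, polionotus higher) and blue points (18 genes, polionotus lower) passed the rule; the 97 open circles passed the species fold only, the grey band covers species differences below 1, and the diagonal marks equal differences.

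The plot of species against allele differences places most members farther from 0 on the allele axis than on the species axis. Among the 43 higher genes the median species log2 ratio was 1.32 (range 1.02 to 3.41) and the median allele log2 ratio 1.99 (1.17 to 5.14). Their mean share had a median of 80.7%. The 18 lower genes had a median species log2 ratio of -1.39 (-3.11 to -1), a median allele log2 ratio of -1.60 (-7.70 to -1.18) and a median share of 24.0%.

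The allele ratio was the larger of the 2 ratios in 36 of the 43 higher and in 15 of the 18 lower genes. The ratios were within 0.5 log2 of each other in 20 and 10 genes. The rule treats the ratios unequally: the species ratio had to pass as a mean, the share in each of 6 animals. This favours larger allele ratios among members, so nothing is read from these counts. The added 1 TPM also shrinks the species ratio of genes with low levels, while only 0.5 was added to summed allele counts. Below 1 TPM were 7 higher genes in *P. maniculatus* and 3 lower genes in *P. polionotus*. For 28 higher and 15 lower genes the share lay within 10 percentage points of the share that the species ratio alone would give.

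Krt20, a keratin of epithelial cells, had the largest species difference of the higher genes. It was at 18.8, 20.5 and 25.7 TPM (lowest, median and highest of 6 libraries) in *P. polionotus* and at 0.0733, 0.78 and 2.6 TPM in *P. maniculatus*, a log2 ratio of 3.41. No library of 1 species reached the range of the other. In the hybrids 93.3% to 97.9% of its counts were polionotus, with a mean of 95.1% ± 1.72 (SD, n = 6 animals) from 96 to 540 counts per animal.

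Dkkl1 encodes a secreted Dickkopf-like protein known from the testis, and Gpr55 a G-protein-coupled receptor for lysophosphatidylinositol. Dkkl1 ranged from 9.34 to 12 TPM (median 11.5) in *P. polionotus* and from 0.995 to 1.78 TPM (median 1.34) in *P. maniculatus*, with shares from 80.5% to 96.1%. Gpr55 was at 4.84, 7.61 and 8.13 TPM in *P. polionotus* and at 0.487, 0.751 and 0.834 TPM in *P. maniculatus*. Its hybrid share of 95.8% ± 2.18 exceeded the 82.8% that the species ratio gives, and its allele log2 ratio (4.54) was among the 3 farthest from the species value (2.27) of the higher genes. For both genes the species ranges stayed apart.

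Il5, the cytokine that drives eosinophils, was low in both species and still separated them, at 3.46, 4.83 and 5.82 TPM against 0.306, 0.521 and 0.642 TPM. Its share was 84.2% ± 3.72. Celsr1, a cadherin of planar cell polarity, reached a mean of 4.44 ± 0.801 TPM against 0.983 ± 0.179 TPM, and a share of 83.2% ± 4.3 from a mean of 1845 counts. Znf286a, a zinc finger gene, stood at 16.2 to 20.5 TPM in *P. polionotus* and 2.72 to 7.03 TPM in *P. maniculatus*, with a share of 84.5% ± 5.11. All 6 polionotus libraries were above all 6 maniculatus libraries for these genes.

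Aloxe3, a lipoxygenase of the skin barrier that acts on hydroperoxy fatty acids, was at 10.9 to 16 TPM in *P. polionotus* and 3.68 to 5.95 TPM in *P. maniculatus* (share 78.2% ± 6.78). Ghdc, a gene of unsettled function, gave the same reading on both scales: its species log2 ratio was 1.47 and its allele log2 ratio 1.40 (36 ± 5.22 against 12.4 ± 1 TPM, share 72.7% ± 2.09). Nudt19, a hydrolase of coenzyme A, was the member with the most counts (1905 per animal) and, of the higher genes, the steadiest share, 73.5% to 74.4%, with an SD of 0.304 points. Its level was 66.3 ± 3.93 TPM against 25.8 ± 2.11 TPM.

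**Figure D2:**
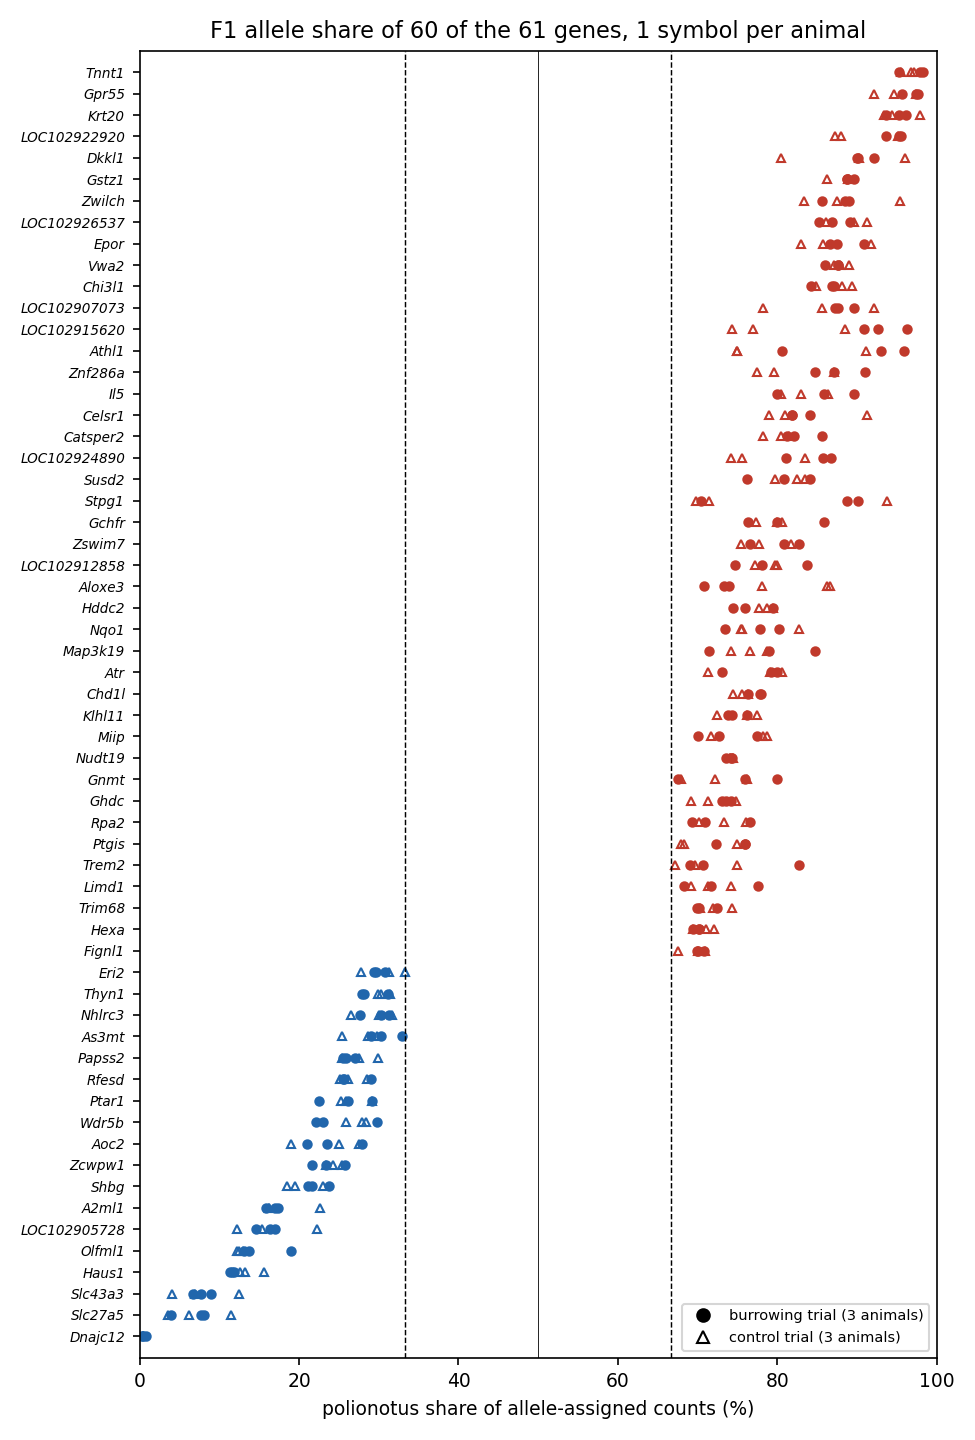
Polionotus share of allele-assigned counts in each of the 6 F1 animals for 60 of the 61 genes, ordered by mean share (filled circles: 3 burrowing animals, open triangles: 3 control animals; dashed lines: the thresholds of 66.7% and 33.3%). Tnnt1 is at the top with a mean of 96.8% and Dnajc12 at the bottom with 0.475%, and Stpg1, Athl1 and LOC102915620 have the widest spread between animals.

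Tnnt1, the slow skeletal muscle troponin T, had the highest share, with 95.2% to 98.3% of its counts on the polionotus allele. The parental levels differed far less: 9, 18.2 and 26.8 TPM in *P. polionotus* and 5.38, 5.83 and 6.5 TPM in *P. maniculatus*, a log2 ratio of 1.40 beside an allele log2 ratio of 5.14. A second such gene was Gstz1, the maleylacetoacetate isomerase of tyrosine breakdown. Its levels were 19.1 ± 1.54 and 8.92 ± 0.834 TPM, a log2 ratio of 1.02, while its share was 88.5% ± 1.2 (allele log2 ratio 2.98). In 12 of the 43 higher genes the allele log2 ratio was larger by over 1, and in none the species ratio.

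Slc27a5, the bile acid coenzyme A ligase, led the lower genes. Its levels were 11.3, 13.5 and 17.7 TPM in *P. maniculatus* and 0.404, 0.744 and 0.911 TPM in *P. polionotus*, a log2 ratio of -3.11. Its hybrid counts were 3.62% to 11.4% polionotus. Slc43a3, a purine nucleobase transporter, followed with 6.1 ± 1.4 against 0.311 ± 0.0934 TPM and a share of 7.81% ± 2.82. Neither gene had overlapping species ranges.

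Haus1, a subunit of the augmin complex that branches spindle microtubules, was at 26.8 to 37.2 TPM in *P. maniculatus* and 7.62 to 9.56 TPM in *P. polionotus* (share 12.7% ± 1.59). Olfml1, an olfactomedin-like secreted protein, was at 3.24 to 4.89 and 0.479 to 0.649 TPM with a share of 13.9% ± 2.55. A2ml1, a protease inhibitor of the macroglobulin family, was at 10.6 ± 1.86 and 2.94 ± 0.363 TPM with a share of 17.5% ± 2.52. In each of these the maniculatus libraries all lay above the polionotus ones.

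Rieske-domain gene Rfesd (16.9 ± 1.12 against 6 ± 0.473 TPM), the histone reader Zcwpw1 (37.8 ± 4.98 against 14.2 ± 1.61 TPM) and the WD-repeat gene Wdr5b (27.5 ± 2.05 against 10.8 ± 2.09 TPM) were lower in *P. polionotus* with shares of 26.7%, 24.0% and 26.2%. Aoc2, an amine oxidase of the retina, and As3mt, the arsenite methyltransferase, had nearly the same species and allele log2 ratios, -1.49 and -1.56 for Aoc2 and -1.27 and -1.34 for As3mt. Eri2, an exoribonuclease, did so too (-1.28 and -1.18). These are the 3 lower genes whose 2 ratios were closest.

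**Figure D3:**
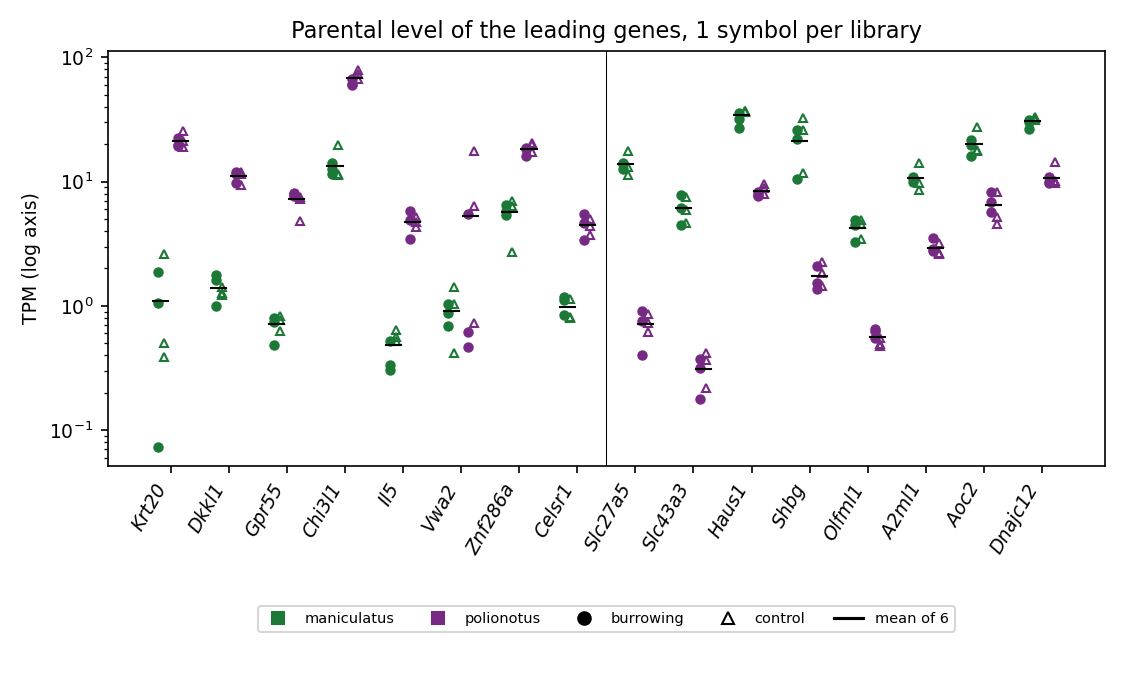
TPM of each parental library (log axis) for the 8 leading named genes higher in *P. polionotus* (left) and the 8 leading genes lower in it (right); green is *P. maniculatus*, purple *P. polionotus*, filled circles are burrowing and open triangles control libraries, and bars are means of 6 libraries. The species separate for 15 of the 16 genes; Vwa2 overlaps, with polionotus libraries from 0.465 to 17.7 TPM.

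Dnajc12 stood apart from every other member. It encodes a J-domain co-chaperone of the hydroxylases that make monoamine transmitters. In *P. polionotus* it was at 9.65, 9.96 and 14.4 TPM, against 26.7, 31.1 and 32.8 TPM in *P. maniculatus*, a log2 ratio of -1.43. That ratio would give a polionotus share of 27.1%. The hybrids held between 2 and 10 polionotus counts of 477 to 2433 per animal. The highest share was 0.856% (95% Wilson interval 0.451% to 1.62%) and the lowest 0.294% (0.1% to 0.86%), intervals that cover counting error only. The polionotus allele was thus counted at a far smaller part than the level in *P. polionotus* brains corresponds to, and its allele log2 ratio of -7.70 was the most extreme of the 61.

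Shbg, the carrier of sex steroids, was the member whose species ratio most exceeded the allele ratio, -3.02 against -1.82. Its levels were 10.5, 23.8 and 32.4 TPM in *P. maniculatus* and 1.35, 1.67 and 2.27 TPM in *P. polionotus*. Its share was 21.3% ± 2, where the species ratio would give 10.9%. No other gene had a species ratio larger than the allele ratio by over 1.

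Gchfr, which binds the enzyme GTP cyclohydrolase and restrains the synthesis of tetrahydrobiopterin, the cofactor of the same hydroxylases that Dnajc12 attends, was a higher gene. Its levels were 18, 19.3 and 24.7 TPM in *P. polionotus* and 3.8, 6.03 and 11.8 TPM in *P. maniculatus*, and its share was 80% ± 3.33. The species ranges did not meet. The cofactor's synthesis and recycling enzymes, picked from the list of locomotor genes after their values were seen, showed no such fold. Gch1, the cyclohydrolase, averaged 0.736 and 0.738 TPM, Pts 27.4 and 28 TPM, Spr 24.6 and 25.8 TPM, and Qdpr 121 and 107 TPM. The share of Qdpr varied from 11.2% to 85.5% between animals.

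None of the 74 eligible genes of the locomotor list was a member, and none of the 23 of dopamine and striatum or the 37 neuropeptides and their receptors. Avp, vasopressin, was the 1 locomotor gene past the species fold (-1.59), and its hybrid share was 44.8% ± 10.9. Drd1, the dopamine receptor of striatal output neurons, had a species log2 ratio of 0.84 and a share of 50.9% ± 0.822. Adora2a, the adenosine receptor of the same region, had 0.94 and 59.9% ± 2.29. With 0.626% of all eligible genes being members, fewer than 1 member would stand in each of these lists at the background share.

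Trem2, the lipid receptor of microglia, was at 24.1, 28.9 and 31.7 TPM in *P. polionotus* and 7.59, 9.18 and 12.6 TPM in *P. maniculatus*. Its share ranged from 67.1% to 82.7% over only 75 to 377 counts per animal, just inside the threshold. Of 10 microglia markers tested between species, 5 were higher and 2 lower in *P. polionotus* (limma, adjusted p below 0.05), where 32.6% and 19.8% of all genes were called. Their summed level was 350 to 407 TPM in *P. polionotus* and 232 to 310 TPM in *P. maniculatus*. Trem2 was 1 of the 5 and is part of the sum. The rule used this contrast to choose it, so nothing is read from these calls. In whole brain, more cells of a type and more RNA per cell cannot be told apart, and the part of microglial content in the Trem2 difference was not tested.

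Other microglial genes did not all follow Trem2 in the hybrids. C1qa, a complement subunit, was at 143 and 89.5 TPM with a share of 67.0%, Tmem119 at 42.3 and 24.3 TPM with a share of 50.3%, and Cx3cr1, the fractalkine receptor, at 22.4 and 12 TPM with a share of 68.2% ± 20.2. P2ry12, a purine receptor, was lower in *P. polionotus*, at 21.9 against 33.0 TPM, with a share of 49.1%. Hexa, the alpha subunit of lysosomal hexosaminidase, was a member with 27.6 ± 0.995 against 10.5 ± 0.796 TPM and a share of 70.4% ± 1.04. Chi3l1, a chitinase-like protein secreted by astrocytes, was at 59.3 to 79.5 TPM in *P. polionotus* and 11.3 to 19.7 TPM in *P. maniculatus*, with a share of 86.8% ± 1.96, while 0 of 9 eligible astrocyte markers were members.

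Atr, the kinase of the replication checkpoint, was at 7.01 ± 0.414 and 2.59 ± 0.126 TPM (polionotus first) with a share of 77.2% ± 3.95. Rpa2, which coats single-stranded DNA, was at 28.9 ± 2.16 and 11.8 ± 0.92 TPM with 72.7% ± 3.08. Fignl1, an ATPase of homologous recombination, had the same log2 ratio between species and between alleles, 1.17, and a share of 69.9% ± 1.22. Zswim7, a recombination factor, had 11.7 ± 0.698 and 3.66 ± 0.267 TPM and a share of 79.2% ± 3.03. Zwilch, a kinetochore protein, was at 2.86 to 3.33 against 0.488 to 0.799 TPM with 88.2% ± 4.08. The remodeller Chd1l had a share of 76.4% ± 1.33. The polionotus libraries all lay above the maniculatus ones for these genes. They were put together after their values were seen, and no background share was computed for such a group. Another gene overlaps Atr, Fignl1, Zswim7, Zwilch and Chd1l on the reference.

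Gnmt, which consumes S-adenosylmethionine, was at 20.6 ± 1.83 and 7.63 ± 2.21 TPM, with log2 ratios of 1.32 between species and 1.28 between alleles. Nqo1, a quinone reductase, was at 8.23 ± 0.89 and 2.95 ± 0.421 TPM (share 77.5% ± 3.46), and Ptgis, the prostacyclin synthase, at 5.04 ± 0.374 and 1.94 ± 0.182 TPM (72.6% ± 3.72). Papss2, which makes the sulfate donor PAPS, was lower at 2.1 ± 0.289 against 5.51 ± 0.667 TPM (26.9% ± 1.7). Gnmt and Ptgis were among the members with fewer than 100 counts in at least 1 animal. The smallest count of any member in an animal was 36, for Ptgis.

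Receptors, adaptors and a channel subunit were also among the higher members. Epor, the erythropoietin receptor, averaged 9.01 ± 1.7 against 3.02 ± 1.42 TPM with a share of 87.6% ± 3.31. Klhl11 and Trim68, from families of ubiquitin ligase adaptors and ligases, had shares of 75.1% ± 1.85 and 71.5% ± 1.71. Limd1, a LIM-domain adaptor, was 1 of 7 higher genes with a larger species than allele ratio (1.72 and 1.31). Catsper2, a subunit of the sperm calcium channel, had 81.5% ± 2.41. Susd2, Hddc2 and Miip, higher genes of other kinds, had shares between 74.8% and 81.1%. Lower genes not yet named were Nhlrc3, Ptar1 and Thyn1, with shares of 29.6%, 26.4% and 29.8%.

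Across families of genes defined by name, members were few. Of 218 eligible solute carriers 2 were members (Slc27a5 and Slc43a3), of 213 ubiquitin ligase and deubiquitinase genes 2 (Klhl11 and Trim68), of 159 zinc finger genes named Zfp or Znf 1 (Znf286a), and of 37 receptors named Gpr or Adgr 1 (Gpr55). Il5 was the 1 member of 55 immune genes, Gstz1 of 33 detoxification enzymes and Krt20 of 4 keratins. Families with 0 members were the 117 ion channels, 59 transmitter receptors, 109 cilium genes and 100 genes of the respiratory chain and mitochondrial ribosome. Genes were placed in families by symbol only. Catsper2, the calcium channel subunit named above, is in none of them, nor is any member that carries only a locus number. A count of 0 therefore does not show that no member is a channel or cilium gene. All members together are 0.626% of the eligible genes, so counts of 0 to 2 in families of 100 to 218 genes lie near the background.

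A further 7 members carry only a locus number in the files. By the symbols of the reference table, LOC102924890 is Ly6s (35.2 ± 3.95 against 6.09 ± 2.36 TPM, share 81.1% ± 5.22), LOC102922920 is B3galt9 (share 92.5% ± 3.81), LOC102907073 is Cfap96 (86.7% ± 4.76) and LOC102905728 is Mtnap1, the only lower one (16.3% ± 3.36). LOC102912858, LOC102915620 and LOC102926537 have no other symbol there. Athl1 was not found in that table.

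Several members varied widely between animals of 1 species. Klhl11 was at 47.1 and 45.7 TPM in the maniculatus libraries numbered 2 of the burrowing and the control trial and at 21.3 to 25.5 TPM in the other 4, while *P. polionotus* was at 59.4 to 80.7 TPM. Shbg was at 10.5 and 11.7 TPM in the maniculatus libraries numbered 1 and at 21.8 to 32.4 TPM in the others. Replicate numbers are names here, and nothing in the labels ties the animals of the 2 trials to each other. The species ranges stayed apart for both genes.

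In *P. polionotus*, Vwa2, an extracellular matrix protein, was at 0.465 and 0.617 TPM in burrowing replicates 1 and 2 and at 0.732 TPM in control replicate 3, against 5.52, 6.41 and 17.7 TPM in the other 3 libraries. Maniculatus libraries were at 0.421 to 1.42 TPM, so the species overlapped. The hybrid share of Vwa2 was nevertheless steady, 85.9% to 89%. Map3k19, a kinase of the MAP kinase cascade, was the other gene with overlapping species: polionotus libraries were at 1.01 and 1.17 TPM in 2 animals and at 4.34 to 7.24 TPM in the other 4, and maniculatus libraries at 0.799 to 1.48 TPM. The ranges were apart in 59 of the 61 genes, compared with 21.6% of all eligible genes higher and 11.3% lower in *P. polionotus*; the species difference chose the members, so nothing is read from that count. Without polionotus control replicate 2, Vwa2 no longer passed the species fold.

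In the hybrids, Athl1, a glucosidase-like enzyme, had shares of 93.1%, 95.9% and 91.1% in burrowing replicates 1 and 2 and control replicate 1 and of 80.5%, 75% and 74.9% in the other 3 animals. Stpg1, a sperm tail protein, split the same 3 and 3 animals, at 88.7%, 90.2% and 93.8% against 70.5%, 69.8% and 71.4%. For Stpg1, the Wilson intervals of the first 3 (from 81.9% up) did not reach those of the last 3 (up to 78.5%). Atr was at 73.1% and 71.4% in burrowing and control replicates 3 and at 79.1% to 80.6% in the other 4. The spread of the share between animals had a median SD of 2.91 points over the members and of 3.32 points over all eligible genes.

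**Figure D4:**
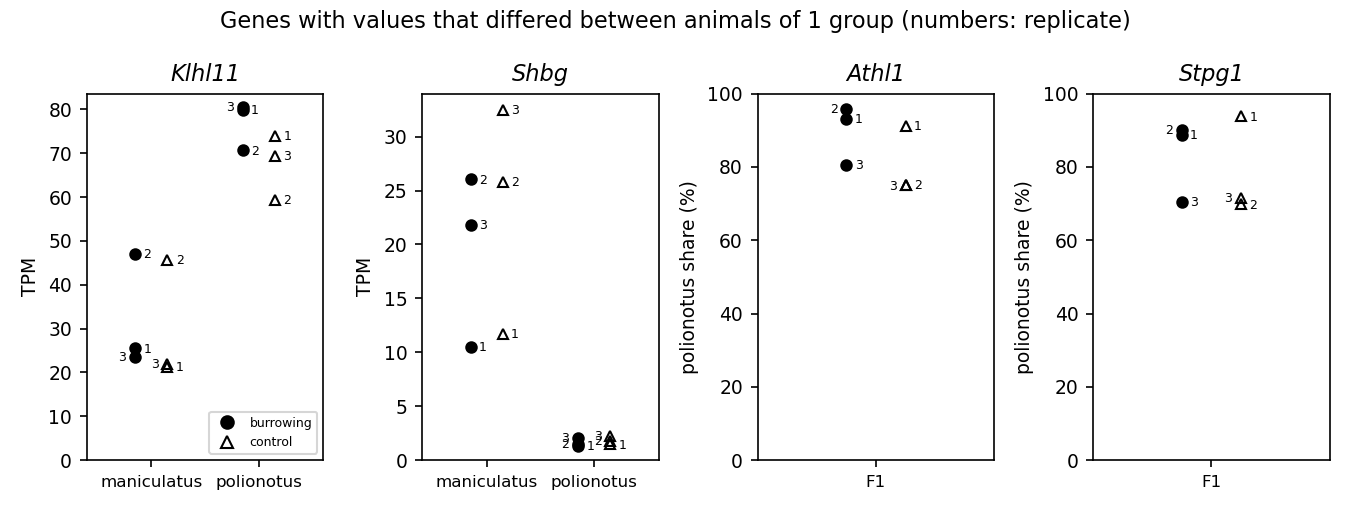
Levels of Klhl11 and Shbg in the 12 parental libraries (TPM) and polionotus share of Athl1 and Stpg1 in the 6 F1 animals (%), with the replicate number beside each symbol (filled circles: burrowing, open triangles: control). The 2 maniculatus libraries numbered 2 are high for Klhl11 (47.1 and 45.7 TPM), those numbered 1 are low for Shbg (10.5 and 11.7 TPM), and 3 hybrids lie above the other 3 for both shares.

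Length and level of the members lay below those of the genes they were drawn from. Their median level was 7.66 TPM against 18.5 TPM over all eligible genes, and their median count per animal 452 against 1232. By the reference annotation, whose assembly may differ from the one behind the files, the median gene length was 16084.5 bases for the 60 members found there and 30508.5 bases for the 9288 eligible genes found. The 24 genes past the species fold whose share lay between the thresholds in all 6 animals had a median level of 14.4 TPM, a median count of 540 and a median length of 16315.5 bases. No test was made, since the fold on the TPM scale and the share thresholds both act on level and depth.

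No member lay on the X chromosome. Males have a single X, inherited from the mother, so hybrids carry 1 X allele. Of 32 eligible genes placed on the X, 23 had a share below 33.3% in all 6 animals, 3 had one above 66.7%, and the median share was 10.5%. Such a gene with counts on both alleles may hold wrongly assigned counts or be wrongly placed, which was not tested. None of the 11 eligible genes known as imprinted in the mouse was a member.

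Members were mostly scattered. Within 25 genes of each other on the reference were 4 pairs, which hold 8 of the 60 placed members (13.3%): Ghdc and Klhl11 (13 genes between them, both higher), Znf286a and Zswim7 (18, both higher), Aloxe3 and Shbg (19, opposite directions), and Eri2 and LOC102926537 (9, opposite directions). Of the 22 placed genes between the share thresholds none had such a neighbour. A set of 22 genes holds far fewer possible pairs than a set of 60, so nothing is read from this difference. How many pairs 60 eligible genes drawn at random would hold was not tested. Another gene overlaps 14 of the 60 members (23.3%), compared with 34.6% of eligible genes, and whether the counting used strand is not stated. Among the overlapped are Atr, Chd1l, Dkkl1, Eri2, Fignl1, Zswim7 and Zwilch, whose counts may hold reads of the partner.

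Genes next to the thresholds show how finely the rule divides. Just inside the species fold were Gstz1, Catsper2 and Ptgis (1.02 to 1.04) and Thyn1 (-1), Papss2 (-1.07) and Ptar1 (-1.22). Just outside were Hpgds (0.98), Fbxo6 (0.95) and Ccnd1 (0.94), and on the lower side Ttc33 (-0.98), Fn1 (-0.95) and Tnfrsf4 (-0.94). Their shares were like those of members, with means of 80.2% for Hpgds, 82.0% for Fbxo6 and 24.6% for Fn1. On the share side, Sec22c (lowest animal 66.4%), Ermard (66.3%) and Cmtm3 (65.8%) missed the threshold in at least 1 animal. Snapin was lower in *P. polionotus* by -1.36 and missed with a highest share of 35.2%. Eri2 passed with 33.3% in its highest animal (95% Wilson interval 29.7% to 37.1%), so counting error alone spans the threshold there.

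Choosing in 1 set of animals and measuring in the other gave a view that the choice did not use. With the rule applied to the control animals alone, 55 higher and 22 lower genes were found. In the burrowing animals 38 of the 55 (69.1%) passed the rule again, and 53 kept the direction of the species ratio with shares on that side of 50% in all 3 animals. Of the 22 lower genes 17 passed again (77.3%) and 20 were on the same side. Among all 9768 genes eligible in control animals, the chosen ones included, 0.491% passed higher and 0.184% lower in the burrowing animals.

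In the reverse direction, 46 higher (39 of them members) and 18 lower genes (17) were found in burrowing animals. Of these, 36 (78.3%) and 17 (94.4%) passed in the control animals, where 0.547% and 0.217% of 9687 eligible genes, the chosen ones included, passed. All 46 and all 18 lay on the same side. How many of all eligible genes do so was not counted, so nothing is read from the same-side counts in either direction. The medians barely moved between the sets: the species log2 ratio was 1.33 where the 55 genes were chosen and 1.31 where they were measured, and the share 78.8% and 78.4%.

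Whether the trial changed any member was tested with fits across all genes. The comparison of allele and trial is not independent of the rule. A member's share had to pass the threshold in every hybrid, burrowing and control alike. Genes whose share crossed it between the trials were thus left out beforehand. Nothing is therefore read from the absence of members among the genes called for allele and trial. No member was called in any of 5 comparisons, which does not show that the members kept their level or allele share. In the hybrids edgeR's quasi-likelihood test of burrowing against control called 0 of 11928 genes (0%), with 90 genes (0.755%) and 2 members below an unadjusted p of 0.05; DESeq2 called 2 genes (0.0168%), neither a member. The unadjusted count rested on single libraries: it was 1844 genes and 11 members without F1 burrowing replicate 1, 182 genes and 2 members without F1 control replicate 3, and 31 genes and 1 member without F1 control replicate 2. With limma, 1 of 14366 genes (0.00696%) was called in *P. maniculatus*, 0 (0%) in *P. polionotus* and 0 (0%) for the interaction of species and trial. Below an unadjusted p of 0.05 were 291 (2.03%), 446 (3.1%) and 415 genes (2.89%), of which 3, 2 and 0 were members. Without maniculatus burrowing replicate 1 the first became 449. The second became 1175 without polionotus control replicate 1 and 237 without polionotus control replicate 2, and leaving out polionotus control replicate 1 gave 923 for the interaction. The interaction of allele and trial was called by edgeR in 27 genes (0.226%), none a member, and 266 genes (2.23%), 2 of them members, were below an unadjusted p of 0.05 (427 without F1 burrowing replicate 1 and 426, with 5 members, without F1 control replicate 3). DESeq2 called 60 genes (0.503%) for this interaction, with no member among them.

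The members with the smallest p are given as not passing. Shbg had 7.04, 6.69 and 6.09 CPM (counts scaled to the library's total) in the burrowing hybrids and 7.18, 15 and 17 in the controls, all controls above all burrowing animals. Its log2 fold change was -1.01 (SE 0.30, edgeR adjusted p = 0.965). Map3k19 had 4.53, 6.76 and 11.2 against 13.1, 15.2 and 12.7 CPM, also without overlap (-0.90, SE 0.32, edgeR adjusted p = 0.965). In both species the trial values of these genes did not pass either.

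In *P. maniculatus*, Miip (-0.33), Haus1 (-0.23) and Rpa2 (-0.18) had the smallest p, each with a limma adjusted p of 1. In *P. polionotus* they were Wdr5b (0.30), LOC102915620 (0.57) and Catsper2 (-0.45), with a limma adjusted p of 0.998. LOC102915620 was at 17.3, 33.3 and 42.5 TPM in the polionotus burrowing libraries and at 19.5, 19.5 and 18.8 TPM in the controls, so 2 of 3 burrowing libraries were high and the remaining one was below every control. Its interaction of species and trial was 0.70 (SE 0.34, limma adjusted p = 0.992).

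Aloxe3 had the smallest p for allele and trial. Its polionotus share was 74.0%, 70.8% and 73.4% in burrowing hybrids and 78.1%, 86.2% and 86.6% in controls, with no overlap (log2 difference -0.98, SE 0.26, edgeR adjusted p = 1). LOC102915620 went the other way, at 92.6%, 90.9% and 96.2% against 74.3%, 76.9% and 88.5%, again with no overlap (1.78, SE 0.54, edgeR adjusted p = 1). Haus1 came next, at 11.9%, 11.6% and 11.3% against 15.7%, 12.6% and 13.2% (-0.27, SE 0.12, edgeR adjusted p = 1).

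**Figure D5:**
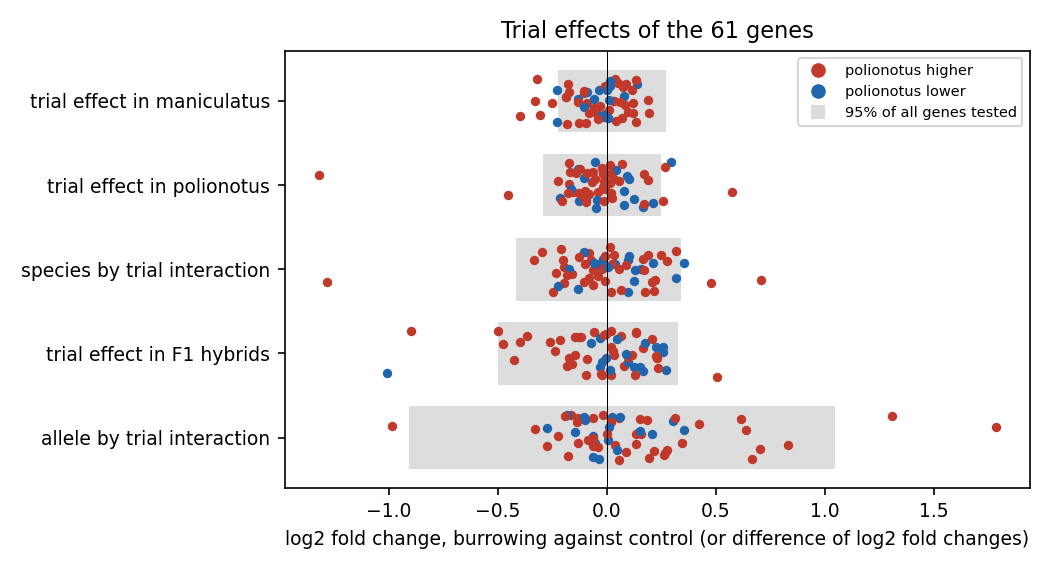
Trial effect (log2 fold change of burrowing against control, or the difference of such changes for the interactions) of the members in 5 comparisons; red points are genes higher and blue points genes lower in *P. polionotus*, and grey boxes cover the middle 95% of all genes tested. Points outside the boxes include Shbg (-1.01) in the hybrids and LOC102915620 (1.78) for allele and trial, and none was called.

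The median size of the trial effect in the hybrids was 0.13 log2 over the members and 0.13 over all genes, as the plot of trial effects shows. In *P. maniculatus* it was 0.09 against 0.05, in *P. polionotus* 0.10 against 0.07, for species and trial 0.13 against 0.09, and for allele and trial 0.15 against 0.12. Members have lower levels than the genes they are set against.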

How the data were processed

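Brain libraries of 12 parental and 6 F1 animals were analysed, grouped by sample title. The authors deposited parental levels as TPM (20732 rows, column sums 977912 to 983476) and hybrid data as whole-number counts per gene and allele (11928 rows). Alignment with STAR 2.4.2a is given per the submitters' processing notes; the sources used here do not give the build, annotation, allele assignment or TPM tool. Per the labels' protocols, a stranded mRNA kit was used on total RNA. Symbols were matched without regard to case (10656 genes in both tables); 1 nameless row and repeated symbols were left out. RefSeq symbols, gene order, lengths and overlaps are from assembly HU_Pman_BW_mat_3.1, which may differ from the authors' build, so no coordinates are printed; no sequence was used here.

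Members and gene lists were chosen with earlier results of these data known. Allele log2 ratios use counts summed over 6 animals plus 0.5. Trial effects were tested with limma 3.58.1 on log2(TPM + 1), filtered to the 14366 genes whose mean reached 1 TPM (1 mean per group, 12 libraries), and with edgeR 4.0.16 (TMM, filterByExpr, quasi-likelihood; animals as blocks for alleles) in R 4.3.3. DESeq2 1.42.0 was an alternative. Tests were two-sided, with Benjamini-Hochberg adjustment over all genes and a threshold of 0.05. Fits were tested on simulated data. There the fit of allele and trial found none of the smallest changes added, and the trial fit in the hybrids missed many. Fold changes on log2(TPM + 1) understate changes of low genes. Named genes follow a rule: per direction the 12 members with the largest smaller ratio, the 3 with the smallest and largest gap between ratios, genes next to thresholds, list members and the 3 smallest p per test; other members and groupings named were chosen after their values were seen. 1 member is not reported by name here. Errors after ± are SD.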

Additional observations from a re-analysis of the deposited data

Results flagged for a closer look

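Each member was examined in 3 sets of 6 values (the maniculatus and polionotus TPM and the F1 shares), and in 17 of 183 sets the highest or lowest value lay apart from the rest by the gap criterion of Dixon's test, which chance gives in about 1 set in 20. Polionotus control replicate 2 held 6 of the 17: Dnajc12 at 14.4 TPM (others 9.65 to 11), Gchfr at 24.7 (18 to 20), Hddc2 at 11.7 (8.02 to 9.18), Nqo1 at 9.98 (7.59 to 8.27) and Vwa2 at 17.7 TPM (0.465 to 6.41) were high, and Gpr55 at 4.84 TPM (7.26 to 8.13) was low. Maniculatus control replicate 3 held 3, all high: Aloxe3 at 5.95, Chi3l1 at 19.7 and Epor at 5.76 TPM. Both libraries scored low on the second principal component.

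In other parental libraries, Limd1 was high in polionotus burrowing replicate 3 (11.1 TPM), LOC102907073 in maniculatus burrowing replicate 1 (4.76 TPM) and LOC102912858 in maniculatus burrowing replicate 2 (3.27 TPM). Among the shares, A2ml1 was high in F1 control replicate 1 (22.6%, others 15.9% to 17.3%), Dnajc12 in F1 burrowing replicate 1 (0.856%) and Olfml1 in F1 burrowing replicate 3 (19%). Gstz1 was low in F1 control replicate 1 (86.2%) and Fignl1 in F1 control replicate 3 (67.6%). Leaving out the library concerned removed Vwa2 from the members and none of the other genes named here.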

How the results depend on the processing

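The number of members depended on the thresholds (43 higher and 18 lower as reported). A species threshold of 0.5 log2 gave 108 and 44 genes and one of 2 log2 gave 5 and 3. A share threshold of 75% gave 20 and 8, a minimum of 500 counts 17 and 11, a pseudocount of 5 TPM 18 and 10, and a pseudocount of 0.1 TPM 61 and 29. Leaving out 1 library at a time gave 37 to 47 higher and 17 to 20 lower genes, with 37 when F1 control replicate 3, the deepest library, was left out (without Catsper2, Gnmt, LOC102912858, LOC102922920, Miip and Ptgis). Scaling by the median, which shifted species log2 ratios by 0.066, gave 40 and 21, without Catsper2, Gstz1 and Ptgis; shares centred on each animal gave 38 and 20, without Fignl1, Gnmt, Limd1, Ptgis and Trem2. Of 1281 recomputed species and allele log2 ratios of members, 1213 moved by less than 1 SD between libraries, 68 by more and 0 changed sign. Most recomputations left out 1 library, which can hardly move a ratio over 6 libraries by 1 SD. The moves came with a pseudocount of 5 TPM (43), a pseudocount of 0.1 TPM (24) and median scaling (1). They touched 43 of the 61 members, so the species ratios depended on the added TPM.

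In the trial comparisons no member was called under any alternative. The count of all genes called in the hybrids was 2 with DESeq2. In *P. maniculatus* it was 0 with a pseudocount of 0.1 and 1 to 6 without 1 library; in *P. polionotus* 3 with no filter and 0 to 2 without 1 library; for species and trial 1 with no filter, 1 with a pseudocount of 5 and 0 to 2 without 1 library; and for allele and trial 60 with DESeq2 and 10 to 73 without 1 library. The cause was not tested. With the replicate number as a block, 0, 1, 0 and 0 genes were called in the hybrids, *P. maniculatus*, *P. polionotus* and the species by trial comparison. Same-numbered libraries correlated at 0.254, 0.126 and 0.0994 in *P. maniculatus*, 0.0484, -0.0741 and -0.229 in *P. polionotus* and -0.446, -0.566 and 0.19 in the hybrids, so the numbers were not taken to pair animals. Each maniculatus library did correlate best with its own number, a hint from the data and not from the design. Low counts limit the shares of Ptgis and Gnmt most, with 36 and 42 counts in their lowest animal.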
